A study of Homo sapiens with 12 samples.

Results

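Genes of blood clotting and of plasminogen activation were followed in Cal27, an established human line of tongue squamous carcinoma. The 9 members were THBD, F3, PLAU, PLAUR, PLAT, SERPINE2, SERPINB2, TFPI and TFPI2, found by symbol among the 25382 rows of the count table. All 9 symbols were present, and 8 of them were among the 15437 genes with enough counts to be tested. TFPI2 was not. The members were chosen by symbol with earlier results of these libraries known, and THBD was selected on its lower level in the class of conditions that the study calls learned. The class difference of THBD is therefore a description, and so are the comparisons that make it up.

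Clotting starts when tissue factor (F3) on a cell surface meets its plasma enzyme, and ends with thrombin cutting fibrinogen. TFPI stops that first complex, and thrombomodulin (THBD) binds thrombin and turns it towards activating protein C, an anticoagulant. On the other side, the activators PLAU (urokinase) and PLAT (tissue-type activator) turn plasminogen into plasmin, which dissolves fibrin and digests matrix, and serpins such as SERPINE2 and SERPINB2 hold them back. Squamous epithelia are known to carry thrombomodulin and tissue factor, and oral carcinoma cells are known for urokinase and its receptor PLAUR.

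Cells were wild type and grew on collagen-coated polyacrylamide gels, for 5 days of conditioning and 1 day after replating. Soft-to-soft cells stayed on gels of 0.48 kPa with no treatment. Stiff-to-soft cells were conditioned on 20 kPa and replated on 0.48 kPa. For LPA-to-soft, lysophosphatidic acid (LPA), a signalling lipid, was present during conditioning on 0.48 kPa, and replating was on 0.48 kPa. For LPA-to-FAKi, conditioning was the same and cells received an inhibitor of focal adhesion kinase (FAK), a kinase of integrin adhesions, at replating. The study design counts stiff-to-soft and LPA-to-soft as learned and the other 2 as not learned. Each condition had 3 libraries numbered 1 to 3, all from 1 cell line. Separate cultures are not stated in the labels, so the p-values cover the spread between these libraries alone, and that spread may be technical.

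Totals ran from 62953957 to 122311183 counts per library. In soft-to-soft replicates 1 and 2, 42.9% and 42.2% of counts from 1 to 19 were even, against 96.8% to 97.8% in the other 10 libraries. Values without soft-to-soft replicates 1 and 2 stand beside the results on THBD, SERPINB2, PLAU, PLAUR and TFPI. Libraries of the same number deviated together, so differences are log2 values ± SE from an edgeR model that holds replicate number as a block, unless the model without it is named. Levels are CPM, library-scaled counts with TMM factors. Bulk RNA cannot tell fewer cells of a kind from less RNA per cell. The 7 squamous epithelial markers were all present and summed to between 5115 and 12405 CPM. Of 5 endothelial markers, 3 (PECAM1, KDR and TEK) stayed under 1 CPM, while CDH5 reached 36.1 CPM. All 4 platelet markers and all 3 hepatocyte markers stayed under 1 CPM.

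THBD was lowest after stiff conditioning and highest after FAK inhibition. Its level in replicates 1, 2 and 3 was 79.6, 63.7 and 54.1 CPM in stiff-to-soft and 111.7, 92.7 and 69.6 CPM in LPA-to-soft. It was 110.8, 91.8 and 73.4 CPM in soft-to-soft and 135.4, 108.6 and 90.8 CPM in LPA-to-FAKi. In numbers 1, 2 and 3 alike the lowest condition was stiff-to-soft and the highest LPA-to-FAKi, with LPA-to-soft and soft-to-soft close together between them. That order contains the difference on which THBD was selected, so the 31 of all tested genes (0.201%) that share it are a description and support nothing. Across numbers the ranges overlapped in every comparison except stiff-to-soft against LPA-to-FAKi, where 7.42% of all tested genes had separate ranges, again a description. Within a number, the difference between those 2 conditions was -0.77, -0.77 and -0.75 on the log2 scale.

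**Figure D1:**
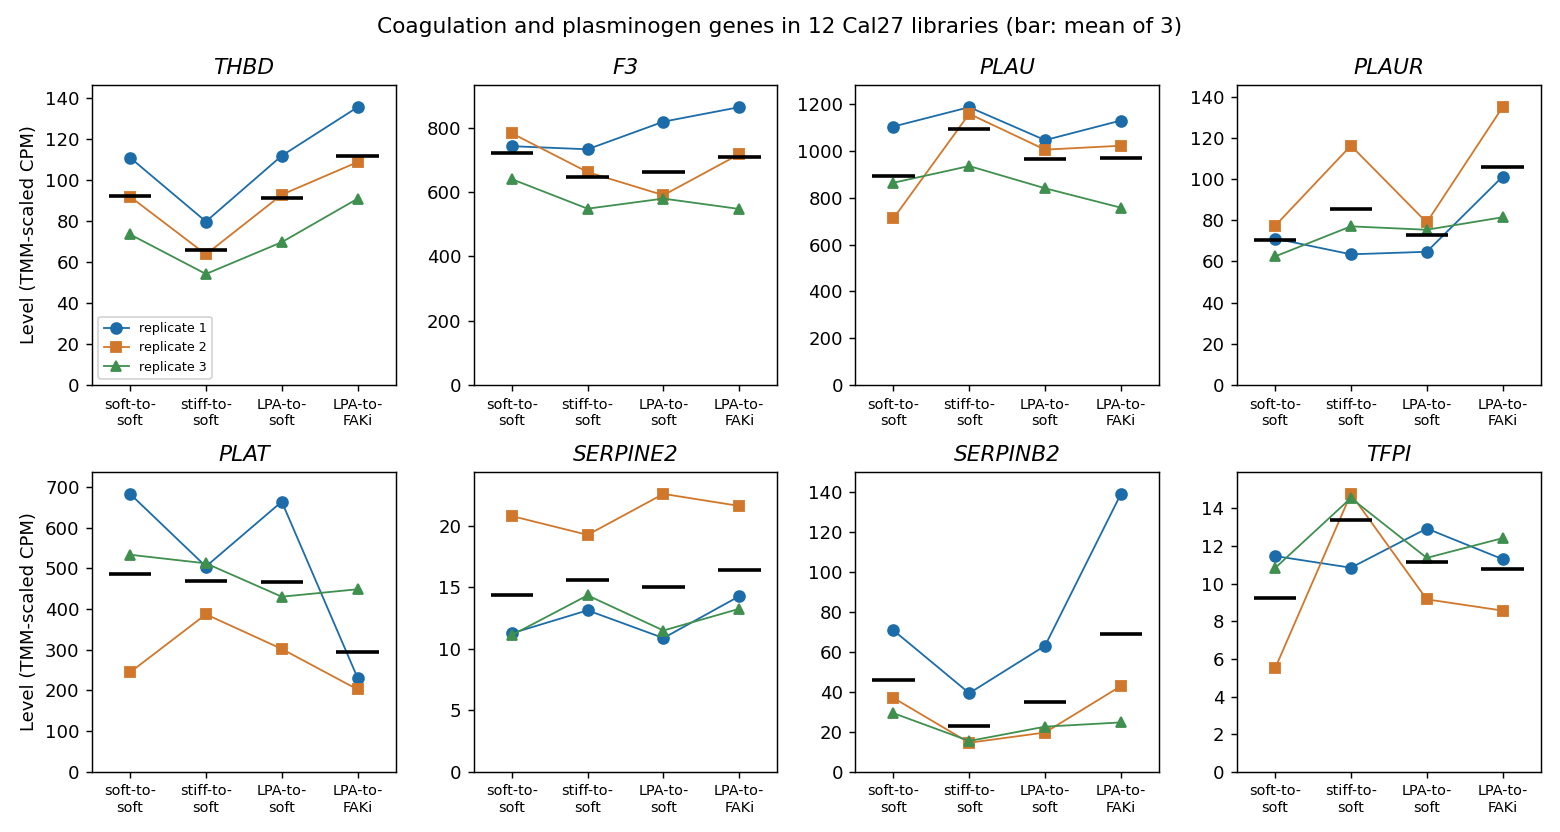
Level of each tested gene (TMM-scaled CPM, linear axis from 0) in the 4 conditions, with 1 point per library, lines joining libraries of the same replicate number and black bars at the mean of 3. The 3 THBD lines run parallel, lowest in stiff-to-soft and highest in LPA-to-FAKi, whereas the SERPINE2 lines separate by replicate number.

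The mean of THBD was 65.8 ± 12.9 CPM in stiff-to-soft, 91.3 ± 21.1 in LPA-to-soft, 92.0 ± 18.7 in soft-to-soft and 111.6 ± 22.4 in LPA-to-FAKi (SD, n = 3). The middle neighbours did not differ beyond their spread. With the block, LPA-to-soft minus soft-to-soft was -0.016 ± 0.053 (log2 ± SE, 95% interval -0.134 to 0.101).

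Comparisons inside a class do not contain the class difference on which THBD was selected. They use the same libraries, and THBD was chosen with all results known. Their p-values and calls are therefore descriptions too and support nothing. With the block stiff-to-soft minus LPA-to-soft was -0.46 ± 0.054 (edgeR quasi-likelihood test, adjusted p = 0.0496), lower in 3 of 3 numbers. It was the 1 member called, and also the 1 gene called among 15437 (0.00648%). LPA-to-FAKi was above soft-to-soft by 0.29 ± 0.053 (edgeR adjusted p = 0.0431), higher in 3 of 3 numbers, where 0.564% of all genes were called. Without soft-to-soft replicates 1 and 2 the adjusted p was 0.129 and 0.492 (edgeR with the block), at -0.46 and 0.29. Both calls lie just under the threshold of 0.05. Without the block they were -0.47 ± 0.216 and 0.29 ± 0.216, and neither was called (edgeR adjusted p = 1 and 0.999). With the block and 1 of the 6 libraries left out, the first was called in 0 of 6 fits and the second in 1 of 6 (without soft-to-soft replicate 2), although the log2 values stayed between -0.50 and -0.44 and between 0.28 and 0.30.

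The comparisons share libraries with each other and are not independent. Those not inside a class contain the difference that chose THBD and carry no test. With the block, stiff-to-soft minus soft-to-soft was -0.48 ± 0.054, LPA-to-FAKi minus LPA-to-soft was 0.31 ± 0.053, and stiff-to-soft minus LPA-to-FAKi was -0.77 ± 0.054. Over the 6 learned libraries the mean was 78.6 ± 20.98 CPM, and over the other 6 it was 101.8 ± 21.4 CPM (SD). The class difference was -0.38 ± 0.115 with the block and -0.38 ± 0.176 without it. Without soft-to-soft replicates 1 and 2 they were -0.48 ± 0.092, 0.305 ± 0.061 and -0.77 ± 0.062, and the class difference was -0.46 ± 0.124.

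Of the 7 tested members other than THBD, edgeR with the block called 0 in each of the 7 comparisons. Of all genes it called 0.583% for stiff-to-soft against soft-to-soft, 0.0324% for stiff-to-soft against LPA-to-FAKi, 0.564% for LPA-to-FAKi against soft-to-soft, 0.00648% between the classes and between both learned conditions, and 0% in the remaining comparisons. Between 1 and 3 of the 7 had an unadjusted p under 0.05 in a comparison, against 7.97% to 22.3% of all genes. Without the block edgeR called 0% of all genes in each comparison, and 0 or 1 of the 7 had an unadjusted p under 0.05, against 1.37% to 5.43% of all genes.

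DESeq2 without the block called 0 of the 7. Of all genes it called 0.0259% for stiff-to-soft against soft-to-soft, 0.013% for LPA-to-soft against soft-to-soft and 0.0324% for LPA-to-FAKi against LPA-to-soft. It called 0.0194% for LPA-to-FAKi against soft-to-soft, 0.0259% for stiff-to-soft against LPA-to-FAKi and 0% in the remaining comparisons. DESeq2 with the block called SERPINB2 for stiff-to-soft against soft-to-soft (2.87% of all genes), against LPA-to-FAKi (2.24%) and between the classes (0.836%). It called SERPINB2 and PLAUR in LPA-to-FAKi against LPA-to-soft (7.97%), and PLAUR in LPA-to-FAKi against soft-to-soft (4.56%). It called 0 of the 7 for LPA-to-soft against soft-to-soft (0.466%) and between LPA-to-soft and stiff-to-soft (0.428%). In the comparisons inside a class it also called THBD.

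Ranges of the conditions rarely separated. For stiff-to-soft against soft-to-soft 0 of 8 members had separate ranges (4.42% of all genes), between LPA-to-soft and soft-to-soft 0 (4.8%), and between LPA-to-soft and stiff-to-soft 0 (6.04%). PLAUR was the 1 member apart for LPA-to-FAKi against LPA-to-soft (11.2%) and against soft-to-soft (6.04%).

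SERPINB2, a serpin that inhibits urokinase and is made by stressed and differentiating keratinocytes, had the widest range by fold among the 8 tested members. Its level in replicates 1, 2 and 3 was 39.3, 14.5 and 15.4 CPM in stiff-to-soft and 63.0, 19.6 and 22.6 CPM in LPA-to-soft. It was 70.7, 36.9 and 29.3 CPM in soft-to-soft and 138.9, 42.9 and 24.7 CPM in LPA-to-FAKi. Stiff-to-soft was the lowest condition within each number, as for THBD and for 2.24% of all tested genes. LPA-to-FAKi was highest in numbers 1 and 2 but below soft-to-soft in number 3.

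With the block SERPINB2 stood at -1.04 ± 0.208 for stiff-to-soft minus soft-to-soft and at -1.40 ± 0.210 against LPA-to-FAKi. Both values narrowly missed the threshold in edgeR (adjusted p = 0.055 and 0.0542). Without soft-to-soft replicates 1 and 2 the second was -1.40 ± 0.191 and was called (edgeR adjusted p = 0.00936), while the first was -1.13 ± 0.274 (0.423). With the block and 1 library left out, each was called in 1 of 6 fits. For the first that was without soft-to-soft replicate 1 (edgeR adjusted p = 0.048, highest of the 6 fits 0.266). For the second it was without LPA-to-FAKi replicate 3 (edgeR adjusted p = 0.0017, highest 0.292). Without the block the values were -0.98 ± 0.672 and -1.59 ± 0.681, and neither was called. LPA-to-FAKi minus LPA-to-soft was 0.85 ± 0.207 (edgeR adjusted p = 0.0853), with 1.14, 1.13 and 0.13 within numbers 1, 2 and 3. Leaving out LPA-to-FAKi replicate 3 made it a call (edgeR adjusted p = 0.0246), in 1 of 6 such fits, where the highest was 0.343. LPA-to-soft minus soft-to-soft was -0.49 ± 0.206 (edgeR adjusted p = 0.605), below 0 in 3 of 3 numbers. THBD and SERPINB2 had r = 0.848 over the 12 libraries once the mean of each number was taken off, as a description of libraries that share depth and handling. F3 and SERPINB2 had 0.724, and PLAU and TFPI had 0.8.

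The start regions of SERPINB2, PLAUR, F3 and TFPI2 are shown because they are those, among the members examined, that hold TGANTCA. They are the 250 bases before the RefSeq start on GRCh38.p14, on the strand of the gene, 5′ to 3′. SERPINB2 is chr18:63887455-63887704 on the plus strand. PLAUR is chr19:43670170-43670419, F3 is chr1:94541760-94542009 and TFPI2 is chr7:93890754-93891003, all on the minus strand. Capitals mark TGANTCA, a looser form of TGAGTCA and TGACTCA, letters that AP-1 transcription factors are known to bind. The looser pattern matches both strands alike.
SERPINB2: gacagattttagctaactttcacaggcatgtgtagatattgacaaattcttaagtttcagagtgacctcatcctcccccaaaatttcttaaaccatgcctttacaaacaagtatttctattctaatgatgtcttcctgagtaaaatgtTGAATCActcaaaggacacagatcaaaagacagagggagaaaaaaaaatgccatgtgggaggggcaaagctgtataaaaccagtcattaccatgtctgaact
PLAUR: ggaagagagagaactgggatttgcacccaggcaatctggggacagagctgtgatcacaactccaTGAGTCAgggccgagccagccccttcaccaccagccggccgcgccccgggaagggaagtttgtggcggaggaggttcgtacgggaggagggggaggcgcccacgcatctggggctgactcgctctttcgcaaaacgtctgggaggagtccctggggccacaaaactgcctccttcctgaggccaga
F3: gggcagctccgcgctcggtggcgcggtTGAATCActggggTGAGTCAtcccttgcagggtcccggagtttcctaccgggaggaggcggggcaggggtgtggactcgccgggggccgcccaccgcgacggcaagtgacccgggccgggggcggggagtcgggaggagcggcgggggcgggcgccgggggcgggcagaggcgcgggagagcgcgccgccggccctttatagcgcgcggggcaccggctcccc
TFPI2: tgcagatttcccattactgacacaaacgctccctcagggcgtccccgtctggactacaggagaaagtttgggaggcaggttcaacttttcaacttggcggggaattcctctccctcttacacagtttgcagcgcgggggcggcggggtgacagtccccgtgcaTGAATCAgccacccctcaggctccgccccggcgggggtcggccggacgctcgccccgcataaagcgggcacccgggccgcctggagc
The letters begin 102 bases before the start in SERPINB2, 186 in PLAUR, 223 and 210 in F3 and 87 in TFPI2. Among all 35116 RefSeq windows of this length 6.57% hold TGANTCA, and 4 of 9 windows from the 7 members examined do. The stricter TGAGTCA or TGACTCA stands in 4.2% of all windows and, among these members, in PLAUR and F3 alone. SERPINB2 and TFPI2 hold TGAATCA only. No match was found in the windows of PLAU, SERPINE2 and TFPI, and those of THBD and PLAT were not examined.

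Urokinase (PLAU) was the most abundant member per kb of exon, at a mean of 333 CPM per kb, ahead of F3 at 239 and PLAT at 64.8. The length joins the exons of all annotated transcripts of a gene and can exceed that of any 1 transcript. It was 2950 bases for PLAU, 2875 for F3 and 6618 for PLAT, and the ranking depends on it. THBD had 21.9, PLAUR 18.8, SERPINB2 15.7, SERPINE2 1.73 and TFPI 0.951 CPM per kb. The range of PLAU over the 12 libraries was 241 to 403 and that of F3 191 to 301, so these neighbours overlapped. THBD at 13.2 to 32.9, PLAUR at 14.0 to 30.3 and SERPINB2 at 5.28 to 50.5 CPM per kb overlapped too. PLAT, at 30.6 to 103 CPM per kb, lay below every PLAU and F3 library on this scale. In CPM, not divided by length, PLAT at 202 to 683 overlapped F3 at 548 to 864.

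PLAU passed no edgeR test between conditions or classes. It was at 1188, 1160 and 936 CPM in stiff-to-soft replicates 1, 2 and 3, and at 1105, 712 and 865 CPM in soft-to-soft. It was at 1047, 1006 and 841 CPM in LPA-to-soft and at 1131, 1023 and 758 CPM in LPA-to-FAKi. Stiff-to-soft was the highest condition within each number, and ranges overlapped throughout. Against soft-to-soft the difference was 0.30 ± 0.117 with the block (edgeR adjusted p = 0.369), made up of 0.10, 0.70 and 0.12 within numbers 1, 2 and 3. It was 0.11 without soft-to-soft replicate 2, the lowest PLAU library, and 0.086 without soft-to-soft replicates 1 and 2.

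PLAUR, which holds urokinase at the cell surface, was highest in LPA-to-FAKi. It was at 101.2, 134.9 and 81.5 CPM there, at 64.7, 78.9 and 75.4 CPM in LPA-to-soft, at 71.1, 77.3 and 62.4 CPM in soft-to-soft and at 63.5, 116.2 and 77.0 CPM in stiff-to-soft. All LPA-to-FAKi libraries lay above all LPA-to-soft and all soft-to-soft libraries. With the block the differences were 0.52 ± 0.139 and 0.58 ± 0.140, neither called by edgeR (adjusted p = 0.0913 and 0.0894). Within numbers 1, 2 and 3 the first was 0.645, 0.773 and 0.112, and the second 0.509, 0.804 and 0.384. Without soft-to-soft replicates 1 and 2 the second was 0.62. With 1 library left out, the first was called in 0 of 6 fits. The second was called in 1 of 6, without LPA-to-FAKi replicate 3 (edgeR adjusted p = 0.0426, highest of the 6 fits 0.387). Stiff-to-soft replicate 2 overlapped the LPA-to-FAKi range.

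PLAT, the tissue-type activator, passed no edgeR test between conditions or classes either. It was at 230.7, 202.3 and 448.6 CPM in LPA-to-FAKi and at 663.9, 301.9 and 430.3 CPM in LPA-to-soft. It was at 682.9, 244.5 and 533.4 CPM in soft-to-soft and at 504.5, 387.0 and 512.3 CPM in stiff-to-soft. LPA-to-FAKi minus LPA-to-soft was -1.53, -0.58 and 0.06 within numbers 1, 2 and 3, so number 3 did not share it. The fit with the block gave -0.64 ± 0.252 (edgeR adjusted p = 0.172). With each LPA-to-soft or LPA-to-FAKi library left out in turn it lay between -0.94, without LPA-to-FAKi replicate 3, and -0.33, without LPA-to-FAKi replicate 1. LPA-to-FAKi minus soft-to-soft was -1.57, -0.27 and -0.25 within numbers 1, 2 and 3. The block gave -0.66 ± 0.251 for it (edgeR adjusted p = 0.231). Stiff-to-soft minus LPA-to-FAKi was 0.71 ± 0.250 (edgeR adjusted p = 0.294), above 0 in 3 of 3 numbers.

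**Figure D2:**
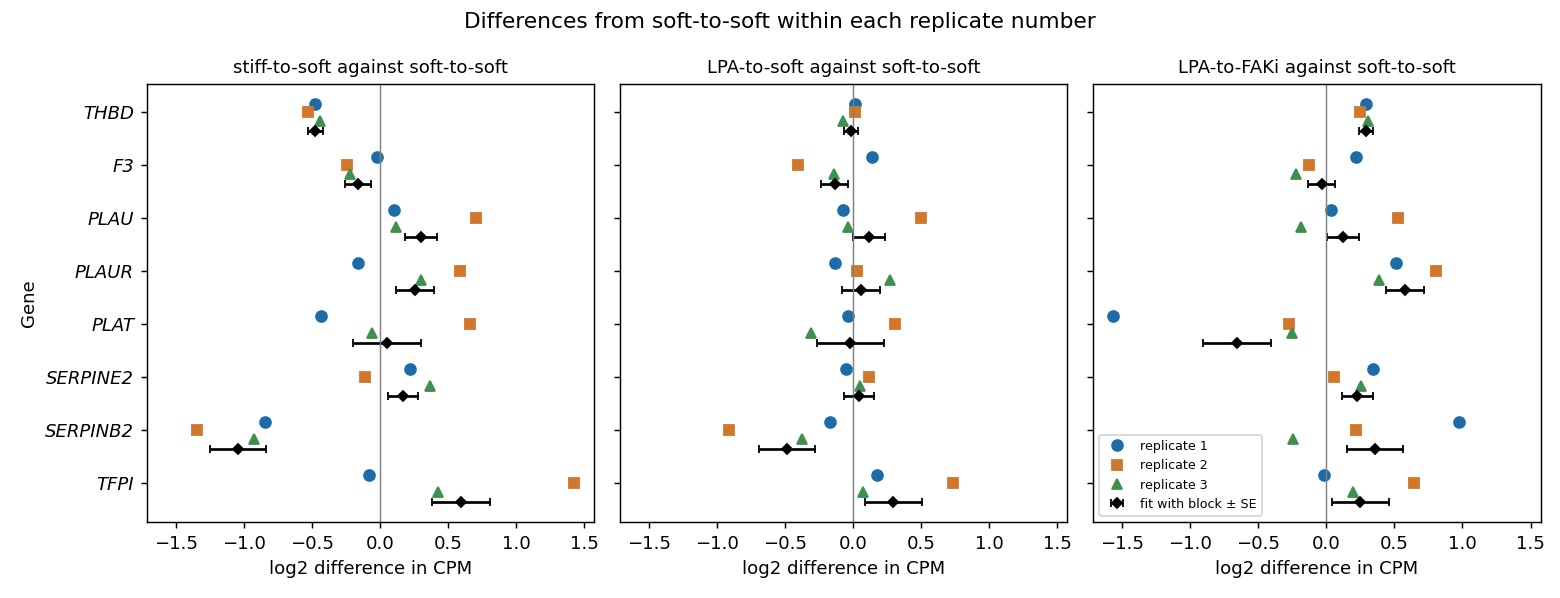
Log2 difference in CPM from soft-to-soft within each replicate number (coloured symbols) and in the edgeR fit with the block (black diamonds, bars ± SE), for 8 genes in 3 conditions. The 3 THBD symbols lie close together at -0.48, -0.53 and -0.44 in stiff-to-soft, whereas TFPI spreads from -0.08 to 1.42.

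Tissue factor (F3), the trigger of clotting, passed no edgeR test between conditions or classes. Its lowest, median and highest levels over the 12 libraries were 548, 690 and 864 CPM. Condition means ran from 648 ± 93.2 CPM in stiff-to-soft to 722 ± 73.6 CPM in soft-to-soft (SD, n = 3), and ranges overlapped in every comparison. Differences with the block lay between -0.16 and 0.10, with edgeR adjusted p from 0.573 to 0.954 in the 6 comparisons of conditions.

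TFPI, the inhibitor of the tissue factor complex, was at 5.49 to 14.8 CPM. It was at 10.8, 14.8 and 14.6 CPM in stiff-to-soft and at 11.5, 5.49 and 10.8 CPM in soft-to-soft. It was at 12.9, 9.17 and 11.4 CPM in LPA-to-soft and at 11.3, 8.57 and 12.4 CPM in LPA-to-FAKi. Stiff-to-soft minus soft-to-soft was 0.60 ± 0.210 with the block (edgeR adjusted p = 0.298), and -0.08, 1.42 and 0.43 within numbers 1, 2 and 3. It was 0.30 without stiff-to-soft replicate 2, 0.34 without soft-to-soft replicate 2 and 0.44 without soft-to-soft replicates 1 and 2. TFPI2, its relative that inhibits plasmin and is often silenced in tumours, had 1 count in soft-to-soft replicate 2 and 0 in the other 11 libraries. A count of 0 allows up to 3 counts, or 0.0243 to 0.0475 CPM depending on the library, for counting error only.

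SERPINE2, a surface-bound inhibitor of thrombin and urokinase, separated by replicate number. Its level was 19.3 to 22.6 CPM in the 4 libraries numbered 2, against 10.9 to 14.3 CPM in those numbered 1 and 11.1 to 14.4 CPM in those numbered 3. Condition means ran from 14.4 ± 5.56 to 16.4 ± 4.57 CPM (SD, n = 3). No comparison of conditions moved it by more than 0.23 with the block (edgeR adjusted p from 0.341 to 0.944).

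Replicate number separated most members. In the additive fit, 7 of 8 differed by number, against 52.3% of all tested genes, and TFPI did not (edgeR adjusted p = 0.142). Within every condition THBD was highest in number 1 and lowest in number 3, with means of 109.4 ± 22.9, 89.2 ± 18.7 and 72.0 ± 15.1 CPM in numbers 1, 2 and 3 (SD, n = 4 conditions, edgeR adjusted p = 2.18e-05). F3 had means of 790 ± 62.7, 689 ± 81.9 and 579 ± 43.6 CPM (edgeR adjusted p = 0.00416), and SERPINB2 78.0 ± 42.8, 28.5 ± 13.6 and 23.0 ± 5.79 CPM (edgeR adjusted p = 7.31e-05). PLAT was lowest in number 2, at 284 ± 79.9 CPM against 521 ± 209 and 481 ± 49.5 CPM, where SERPINE2 was highest. What a number denotes is not given in the labels.

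The numbers and the conditions split the spread of the genes unequally. For THBD condition held 54.8% of the sum of squares of log2 CPM, number 44.5% and the rest 0.63%, against medians of 19.3%, 50.4% and 24.4% over all tested genes. The difference on which THBD was selected is part of that condition share. Setting the shares of THBD against the medians is therefore a description and supports nothing. PLAUR had 43.6% with condition, TFPI 32.4%, SERPINB2 30.7%, PLAT 29.7% and PLAU 22.0%. F3 had 9.23% and SERPINE2 5.24%. The rest was 38.9% for TFPI and 29.5% for PLAU.

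**Figure D3:**
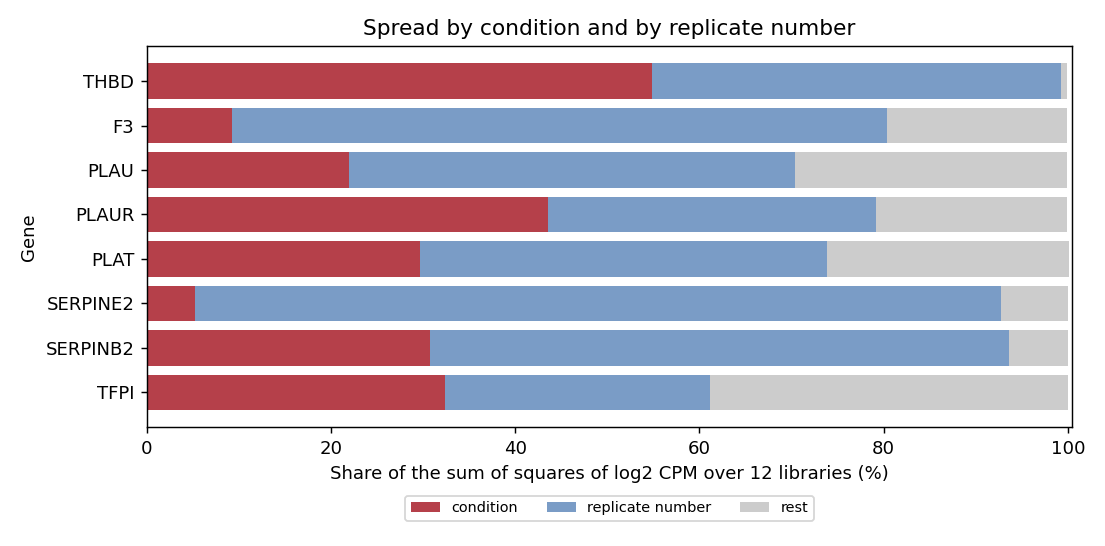
Share of the sum of squares of log2 CPM over 12 libraries (percent) held by condition, replicate number and the rest, for each tested gene. THBD has the smallest rest at 0.63%, and SERPINE2 the largest share with replicate number at 87.5%. The condition share of THBD contains the difference on which THBD was selected.

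Other genes of the pathway were taken from a list of 45, by role and not by values. Of these, 24 were not tested, with at most 0.13 CPM in any library, among them plasminogen (PLG), prothrombin (F2) and the fibrinogen chains. Of the 21 tested, edgeR with the block called 0 in each of the 7 comparisons, and 1 to 7 had an unadjusted p under 0.05, against 7.97% to 22.3% of all genes. The 7 stood in LPA-to-FAKi against LPA-to-soft, where the share of all genes was 22.3%. Without the block it also called 0, with 0 or 1 under 0.05, against 1.37% to 5.43% of all genes. DESeq2 with the block called 2 for stiff-to-soft against soft-to-soft (2.87% of all genes), which were MRC2 and SERPINA5. It called 3 in LPA-to-FAKi against LPA-to-soft (7.97%), which were PROCR, S100A10 and VWF, and 2 in LPA-to-FAKi against soft-to-soft (4.56%), which were PROCR and VWF. With the block in edgeR, medians of the 21 lay between -0.075 and 0.022, against medians between -0.011 and 0.002 over all genes, but single genes went far in both directions.

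MRC2, SERPINA5 and VWF, all of low level, are named because they were the extremes in some comparisons. MRC2, a collagen receptor that also associates with the urokinase receptor, was at 1.46 to 8.05 CPM. It stood at -0.996 ± 0.246 for stiff-to-soft minus soft-to-soft (edgeR adjusted p = 0.119), below 0 in 3 of 3 numbers. Against soft-to-soft it was also lower in LPA-to-soft (-0.70 ± 0.243) and LPA-to-FAKi (-0.76 ± 0.246), each in 3 of 3 numbers. The difference was thus not particular to stiff conditioning. SERPINA5, the protein C inhibitor, was at 0.222 to 3.24 CPM. It stood at 1.40 ± 0.472 for stiff-to-soft minus soft-to-soft (edgeR adjusted p = 0.264). It was above 0 in 3 of 3 numbers but unequal, at 0.118, 2.999 and 1.175 in numbers 1, 2 and 3. The 0.222 CPM was a soft-to-soft library. VWF, the von Willebrand factor that tethers platelets, was at 1.12 to 4.55 CPM. It stood at -0.99 ± 0.242 in LPA-to-FAKi against soft-to-soft (edgeR adjusted p = 0.0934). Its ranges were separate there, as for 6.04% of all tested genes. Values of these 3 genes without soft-to-soft replicates 1 and 2 are not given.

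PROCR, the receptor that presents protein C to thrombin bound by thrombomodulin, was at 25.5 to 38.2 CPM. It stood at 0.28 ± 0.071 in LPA-to-FAKi against LPA-to-soft (edgeR adjusted p = 0.0863), above 0 in 3 of 3 numbers, and at 0.18 ± 0.071 for stiff-to-soft minus soft-to-soft (edgeR adjusted p = 0.388). The thrombin receptor F2R, at 11.7 to 29.2 CPM, stood at -0.43 ± 0.173 for stiff-to-soft minus soft-to-soft (edgeR adjusted p = 0.387). That was below 0 in 3 of 3 numbers and with separate ranges, as for 4.42% of all tested genes. F2RL1, a receptor cut by trypsin-like proteases, was at 168.5 to 276.4 CPM and stood at -0.24 ± 0.080 in LPA-to-FAKi against soft-to-soft (0.187).

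**Figure D4:**
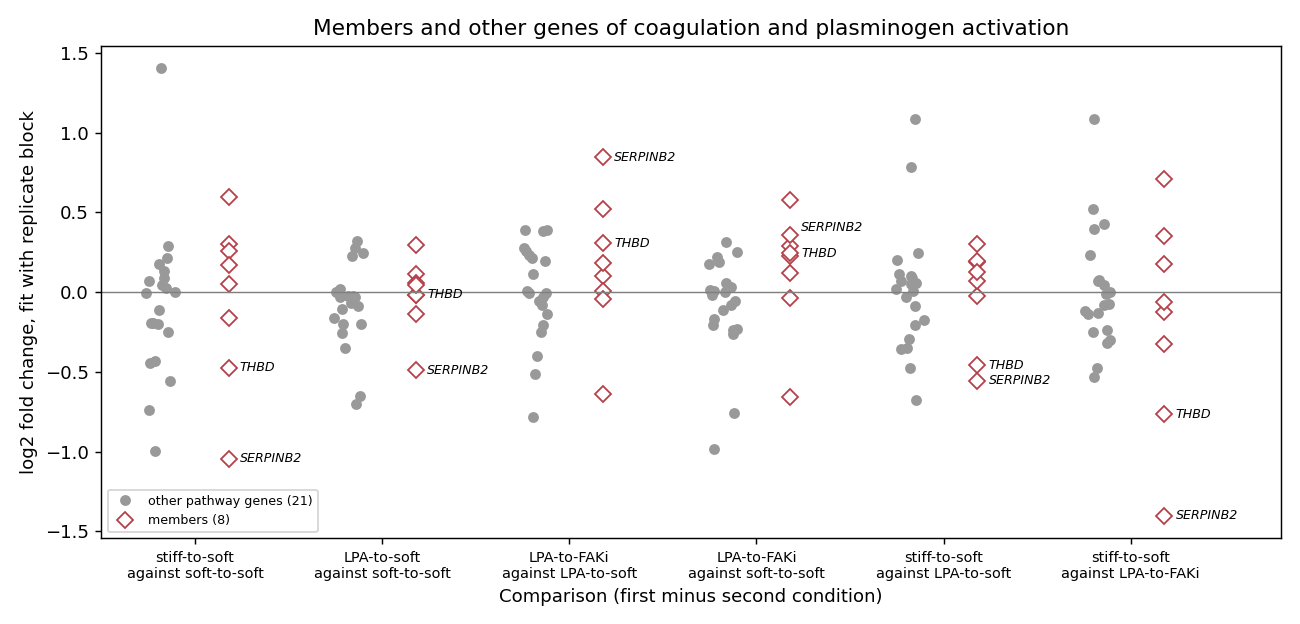
Log2 fold change in the edgeR fit with the replicate block for 8 members (red diamonds) and 21 other pathway genes (grey circles) in 6 comparisons of conditions. For stiff-to-soft minus LPA-to-FAKi THBD lies at -0.77 and SERPINB2 at -1.40, and the other pathway genes spread to both sides of 0 in each comparison.

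The genes most like each member were sought among 10540 tested genes of at least 5 CPM, over 12 libraries with the mean of each number taken off. THBD was most like EPN2, an endocytic adaptor (r = 0.983), the monoamine oxidase MAOA (0.949) and the EGF receptor ligand EREG (0.945). SERPINB2 was most like the cytokine receptor IL22RA1 (0.989), C1orf116 (0.972) and SPRR2A (0.956), a precursor of the cornified envelope with near-identical copies. TFPI was most like the surface receptor CD40 (0.965), OPN3 (0.96) and the adhesion molecule ICAM1 (0.955). PLAT was most like METTL7A (0.971), PLAUR like EIF1B (0.949), PLAU like CLIP4 (0.966), F3 like MRI1 (0.917) and SERPINE2 like ELP3 (0.975). These are descriptions over libraries that share conditions and depth. With no mean taken off, SPRR2A stood first for SERPINB2 (0.976) and second for THBD (0.928), after SPRR2E (0.931). SERPINE2 was then most like KCMF1 (0.978) and the heat shock genes HSPA1B (0.973) and HSPA1A (0.971), which are near-identical to each other.

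Markers of other cells were read beside these results. The summed leukocyte and macrophage markers were 18.4 to 45.7 CPM in LPA-to-FAKi, where CD68 reached 41.6 CPM, against 12.2 to 18.8 CPM in the other conditions, with PTPRC under 0.06 CPM in every library. Summed endothelial markers were 5.70 to 15.9 CPM in LPA-to-FAKi and 11.2 to 37.5 CPM in stiff-to-soft. They were 11.2 to 22.0 CPM in soft-to-soft and 14.6 to 23.3 CPM in LPA-to-soft. CDH5 alone was at 4.37 to 36.1 CPM over all libraries, so these sums mostly follow 1 gene. Of 6 fibroblast markers 2 stayed under 1 CPM, and the sums were 14.5 to 36.7 CPM over all libraries. Their part in the results was not tested.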

How the data were processed

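RNeasy-purified RNA of Cal27 cells was sequenced as 12 stranded TruSeq libraries, 3 for each of 4 conditions, per the labels' protocols. The authors deposited counts of reads per symbol, as whole numbers, and a second table of normalized log2 values. Per the submitters' processing notes, cutadapt, FastQC, STAR, HTSeq and DESeq2 were used with the build hg19. The strand option, annotation and settings were not given in these sources. Each deposited log2 value is the rescaled count plus 1 on the log2 scale, with 1 scale per library (relative range at most 6.94e-09), and these values entered no test.

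The quasi-likelihood F test of edgeR 4.0.16 (R 4.3.3) was applied to the counts with TMM scaling, the low-count filter by condition and Benjamini-Hochberg adjustment over all 15437 genes. A gene is called at an adjusted p under 0.05. Conditions were contrasts in 1 model of 12 libraries, and classes a model of 6 against 6. The SE is the absolute log2 fold change over the square root of F. The planned fit held no block and called no gene in any comparison. Alternatives to it were the replicate block (used for most values given), DESeq2 1.42.0, RLE scaling, no filter, libraries left out and halved counts. The fits were tested on simulated data. Log2 CPM used a prior count of 2, and exon lengths came from GENCODE v29, on a later build than the counts.

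Replicate numbers come from the sample titles. After condition means were taken off, same-numbered libraries correlated with r from 0.312 to 0.659 over 18 pairs, so the numbers pair the samples. All 9 members were named, with F2R, F2RL1, PROCR, any called pathway gene and, from the 3 genes most alike by r, those given in the text. MRC2, SERPINA5, VWF and S100A10 were added after their values were seen. A further named gene is not reported here. Members and lists were chosen with earlier results of these data known.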

Additional observations from a re-analysis of the deposited data

Results flagged for a closer look

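PLAUR in stiff-to-soft replicate 2 stood apart from the other learned libraries. It was at 116.2 CPM, and the next of the 6 libraries was at 78.9 CPM. The gap was 0.707 of the range of the class, above the 95% critical value of the test of Dixon for 6 values. For 6 like values chance alone gives about 1 such library in 20 groups, and 16 groups (8 genes in 2 classes) were examined. These 6 values mix 2 conditions and 3 replicate numbers, and PLAUR differed by number (edgeR adjusted p = 0.0143). That rate therefore need not hold here. Of the 3 libraries numbered 2 in the other conditions, LPA-to-FAKi replicate 2 was also the highest of its class, at 134.9 CPM.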

How the results depend on the processing

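THBD kept its direction under every alternative run, except for LPA-to-soft against soft-to-soft. With the replicate block, 1 member was called for stiff-to-soft against soft-to-soft, against LPA-to-soft and against LPA-to-FAKi, and 1 in LPA-to-FAKi against soft-to-soft, each being THBD, and the block changed no other call among members in edgeR. In comparisons across the classes a call of THBD carries no weight, since THBD was selected on that difference. Its calls inside a class are descriptions, since THBD was chosen with all results known. Halving the counts of the 10 even libraries with the block gave the same 1, 1, 1 and 1. Leaving out soft-to-soft replicates 1 and 2 with the block gave 1 in LPA-to-FAKi against LPA-to-soft, 2 in stiff-to-soft against LPA-to-FAKi and 0 elsewhere, with 1 soft-to-soft library left. The 1 was THBD (edgeR adjusted p = 0.0489) and the 2 were THBD and SERPINB2, while THBD was no longer called for stiff-to-soft against soft-to-soft (-0.48, edgeR adjusted p = 0.266) or for LPA-to-FAKi against soft-to-soft (0.29). DESeq2 with the replicate block called 1 member between the classes, 2 for stiff-to-soft against soft-to-soft, 3 in LPA-to-FAKi against LPA-to-soft, 2 in LPA-to-FAKi against soft-to-soft, 1 in stiff-to-soft against LPA-to-soft and 2 against LPA-to-FAKi, and 2, 3 and 2 other pathway genes in the first 3 comparisons of conditions named here. The cause was not tested.

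With 1 library left out, with or without the block, members called ranged from 0 to 2 for stiff-to-soft against soft-to-soft and against LPA-to-FAKi, and from 0 to 1 in LPA-to-FAKi against LPA-to-soft and against soft-to-soft. Other pathway genes called ranged from 0 to 1 in the last 2, with 1 without LPA-to-FAKi replicate 3. Members differing by replicate number ranged from 6 to 8. RLE scaling and no filter changed no count of calls.

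Some differences changed sign. For stiff-to-soft against soft-to-soft PLAT was at 0.051 with the block, 0.052 in DESeq2 with the block, 0.05 with halved counts and 0.082 without soft-to-soft replicates 1 and 2. Without those libraries PLAU was at -0.098 and PLAT at 0.034 for LPA-to-soft against soft-to-soft, and PLAU at -0.092 for LPA-to-FAKi against soft-to-soft. With 1 library left out, log2 values that changed sign in some fit had these ranges. Between the classes they were PLAUR from -0.294 to 0.01 and SERPINE2 from -0.156 to 0.111. With soft-to-soft taken from stiff-to-soft they were PLAUR from -0.001 to 0.46, PLAT from -0.377 to 0.287 and SERPINE2 from -0.067 to 0.479. With soft-to-soft taken from LPA-to-soft they were THBD from -0.182 to 0.149, PLAU from -0.067 to 0.287, PLAUR from -0.082 to 0.17, PLAT from -0.412 to 0.255, SERPINE2 from -0.364 to 0.422 and SERPINB2 from -1.114 to 0.075. With LPA-to-soft taken from LPA-to-FAKi they were F3 from -0.066 to 0.281, PLAU from -0.114 to 0.172, SERPINE2 from -0.12 to 0.553, SERPINB2 from -0.052 to 1.708 and TFPI from -0.174 to 0.091. With soft-to-soft taken from LPA-to-FAKi they were F3 from -0.191 to 0.147, PLAU from -0.069 to 0.306, SERPINE2 from -0.062 to 0.553, SERPINB2 from -0.433 to 1.061 and TFPI from -0.049 to 0.431. With LPA-to-soft taken from stiff-to-soft they were F3 from -0.132 to 0.148, PLAUR from -0.055 to 0.406, PLAT from -0.225 to 0.355, SERPINE2 from -0.128 to 0.479, SERPINB2 from -1.228 to 0.13 and TFPI from -0.014 to 0.538. With LPA-to-FAKi taken from stiff-to-soft they were F3 from -0.297 to 0.034 and SERPINE2 from -0.256 to 0.177.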
